A study of Homo sapiens with 4 samples.

Results

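The primary cilium genes described here are 42 genes of intraflagellar transport (IFT), the BBSome, the ciliary gate and the basal body, followed in RPE-1 cells between 4 h and 8 h of exposure to merbarone. They were taken from a list of 42 gene symbols, kept where the count scaled to library size (CPM) exceeded 1 in 2 or more libraries, and all 42 were kept, out of 12559 genes that passed that filter and 23459 that were listed. hTERT RPE-1 is an established human epithelial line of the retinal pigment epithelium, immortalized with telomerase and labelled wild type. All cells were held for 48 h in medium with 0.1% serum, a treatment used to bring cells to rest, and then received 200 μM merbarone, a catalytic inhibitor of type II topoisomerases, for 240 or 480 min. There were 2 libraries at 4 h and 2 at 8 h, with 8064450 to 10324697 reads counted on genes per library. Cells without merbarone are not analysed here, so time of exposure and further time in low serum cannot be told apart.

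The primary cilium is a single antenna-like projection that a resting cell builds on its mother centriole, and cells resorb it before division. Serum starvation of RPE-1 cells is a widely used way to make them grow cilia. Proteins move along the ciliary axoneme on IFT trains, in which the IFT-B complex goes outward with kinesin-II and the IFT-A complex returns with dynein-2, while the BBSome carries membrane proteins and the transition zone at the ciliary base limits what enters and leaves. RFX transcription factors bind a motif called the X-box near the start of many ciliary genes.

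The X-box was found in a larger share of ciliary promoters than of promoters in general, in a window that spans the start. RefSeq promoter sequences (GRCh38.p14, from 250 bases before to 50 after the start) were at hand for 38 of the 42 genes. An X-box, searched on both strands, was present in 6 of these 38 (15.8%), against 217 of the 10183 tested genes with a promoter (2.13%) and 439 of 27305 genes in all (1.61%). In the 100 bases before the start alone, 0 of the 38 and 0.884% of the tested genes held it, since 4 of the 6 matches run across or begin at the start and the other 2 lie farther upstream. The 6 sequences are shown because their genes went different ways between the times, with the X-box in capitals and each read 5′ to 3′ on the strand of its gene.
IFT57 (chr3:108222395-108222487, minus strand): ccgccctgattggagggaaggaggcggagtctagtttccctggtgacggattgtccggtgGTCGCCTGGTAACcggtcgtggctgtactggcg
IFT122 (chr3:129440152-129440246, plus strand): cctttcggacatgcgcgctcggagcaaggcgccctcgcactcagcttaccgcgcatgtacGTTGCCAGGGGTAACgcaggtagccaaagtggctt
TCTN1 (chr12:110614069-110614158, plus strand): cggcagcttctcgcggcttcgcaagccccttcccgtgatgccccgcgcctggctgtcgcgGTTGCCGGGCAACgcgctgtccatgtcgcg
TCTN3 (chr10:95694110-95694177, minus strand): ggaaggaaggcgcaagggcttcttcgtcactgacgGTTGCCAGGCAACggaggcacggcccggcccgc
B9D1 (chr17:19378073-19378163, minus strand): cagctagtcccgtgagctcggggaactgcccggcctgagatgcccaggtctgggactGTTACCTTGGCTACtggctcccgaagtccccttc
B9D2 (chr19:41364124-41364217, minus strand): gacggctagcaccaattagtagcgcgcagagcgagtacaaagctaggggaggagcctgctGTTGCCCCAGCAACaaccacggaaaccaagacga

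The core GTTGCC, searched on both strands and contained in 4 of the 6 X-boxes above, was present in 19 of the 38 genes (50%), against 17.2% of the tested genes and 14.6% of all genes with a promoter. In the 100 bases before the start the shares were 28.9% of the ciliary genes and 6.35% of the tested genes. It is shown in capitals, or as its reverse complement, for the 5 ciliary genes that fell the most among those with the core and no X-box.
IFT81 (chr12:110124297-110124382, plus strand): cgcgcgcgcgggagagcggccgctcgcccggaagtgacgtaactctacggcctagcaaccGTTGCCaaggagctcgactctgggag
OFD1 (chrX:13734615-13734700, plus strand): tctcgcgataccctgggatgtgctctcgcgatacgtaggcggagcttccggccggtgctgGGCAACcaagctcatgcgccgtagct
IFT74 (chr9:26956324-26956409, plus strand): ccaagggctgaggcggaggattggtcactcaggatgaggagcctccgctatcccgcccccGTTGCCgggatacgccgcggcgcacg
BBS10 (chr12:76348611-76348665, minus strand): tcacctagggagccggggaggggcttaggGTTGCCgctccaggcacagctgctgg
IFT88 (chr13:20567113-20567186, plus strand): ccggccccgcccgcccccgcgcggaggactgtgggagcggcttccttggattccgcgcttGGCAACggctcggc
IFT74 held another core farther upstream. Motifs of cell-cycle promoters were in similar or smaller shares in the longer window. The E2F core (TTTCCCG or TTTGGCG, both strands) was in 4 of the 38 (10.5%) and in 12.05% of the tested genes, with 7.89% and 4.59% in the 100 bases before the start. TTTGAA, the core of the CHR element, was in 3 of the 38 (7.89%) and in 13.7% of the tested genes. In the 100 bases before the start it was in 0 of the 38 and in 3.87%. For both motifs, counts this small cannot be set apart from the shares of the tested genes. A match is a description of the sequence and not a measured binding site.

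The labelled cell type was checked on marker genes. Of 14 markers of the retinal pigment epithelium, MITF (75.5 to 92.5 CPM), OTX2 (15.9 to 20.6 CPM), KRT8 and KRT18 were expressed, whereas RPE65, BEST1, RLBP1 and LRAT stayed below 1 CPM in every library and TYR and RGR had no count. Markers of motile cilia, which other epithelia carry, summed to 28.0 and 29.7 CPM at 4 h and 20.6 and 20.7 CPM at 8 h over 19 genes. Of these, 7 passed the filter and 5 had no count at all, and FOXJ1, their master regulator, had at most 0.0946 CPM. Photoreceptor markers summed to at most 7.96 CPM over 10 genes, with 6 of them, CRX and RCVRN included, at 0. Fibroblast markers summed to 9452 and 9391 CPM at 4 h and 10768 and 12809 CPM at 8 h, most of it VIM. THY1 (498.1 to 522.3 CPM), PDGFRB (301.4 to 341.1 CPM) and FAP (98.9 to 128.7 CPM) were also expressed. COL1A1 was expressed and fell, with 82.1 and 85.0 CPM at 4 h and 42.8 and 53.7 CPM at 8 h (log2FC −0.80). COL1A2 and LUM stayed below 1 CPM in every library. In these bulk libraries fewer cells of a kind and less RNA per cell cannot be told apart.

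The 42 ciliary genes were expressed at moderate to low levels, and all also passed a minimum CPM of 2. Values are given as CPM with TMM normalization, which corrects for library composition, and levels of different genes are compared only as RPKM, that is per kilobase of exonic sequence. By RPKM, IFT57 (19.2) and IFT52 (13.9) of the IFT-B complex were the highest and RPGRIP1L (0.658) the lowest, averaged over the 4 libraries. With the longest transcript as length, IFT57 (22.8) was the highest and ARL6 (0.933) the lowest, below RPGRIP1L (1.18). The lowest raw count of any ciliary gene was 19 (ARL6, 8 h replicate 2) and the highest 1035 (TCTN3, 4 h replicate 2). Together the 42 genes summed to 1113 and 1095 CPM at 4 h and 1007 and 1006 CPM at 8 h. The median of the mean log2-CPM was 4.34 for the ciliary genes and 4.91 for all genes tested.

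**Figure D1:**
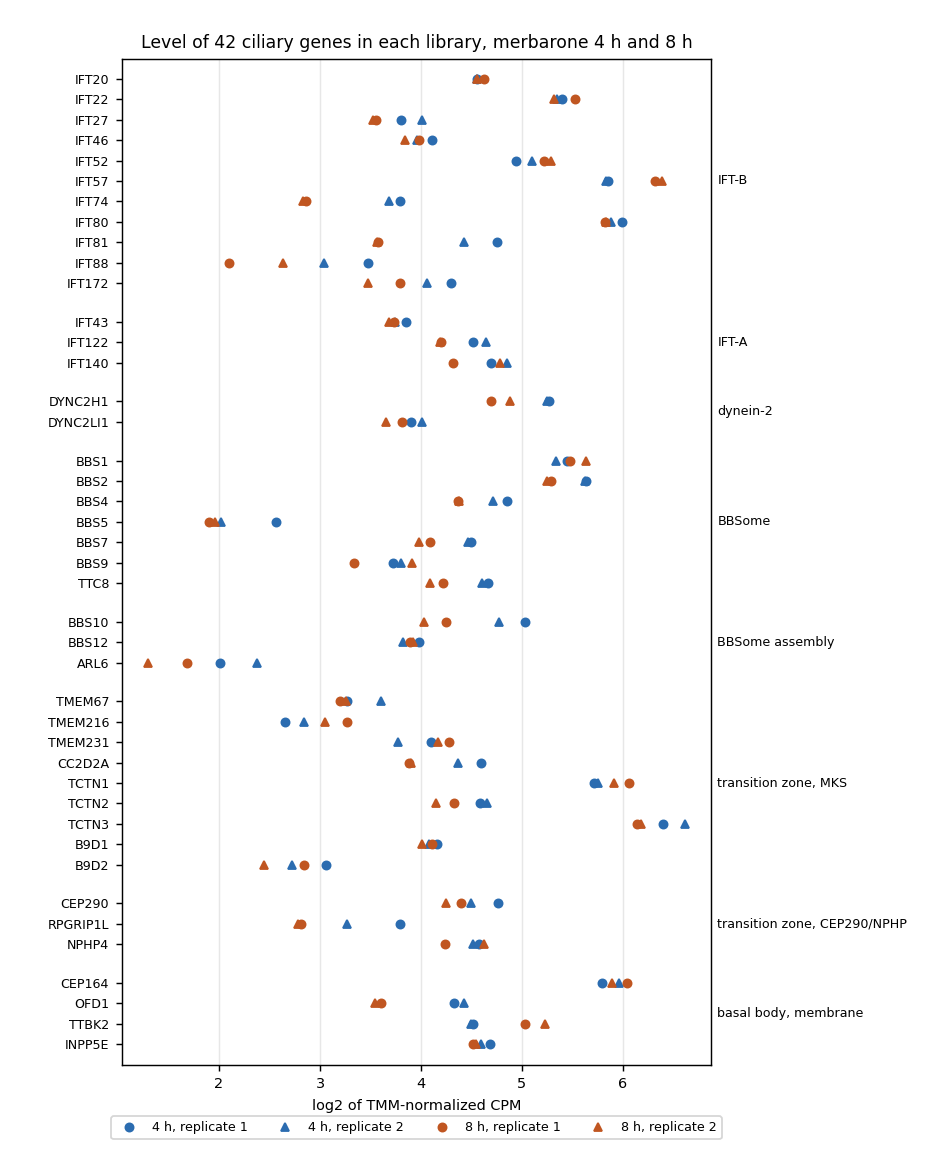
Level of each of the 42 ciliary genes in the 4 libraries, as log2 of TMM-normalized CPM (horizontal axis), with genes grouped by role. Circles and triangles are replicates 1 and 2, blue is 4 h and orange is 8 h. IFT81, IFT74, BBS10 and OFD1 have both 8 h libraries left of both 4 h libraries, and IFT57 and TTBK2 have them on the right.

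Ciliary gene expression fell more often than it rose from 4 h to 8 h. Of the 42 genes, 16 were lower and 2 higher at 8 h at an adjusted p below 0.05 (edgeR quasi-likelihood test, Benjamini-Hochberg adjustment over all 12559 genes), and 24 did not pass. The background of the comparison was wide, since 38.8% of all genes tested passed, 18.8% lower and 19.9% higher, against 38.1% and 4.76% of the ciliary genes. The median log2 fold change (log2FC, 8 h against 4 h) was −0.23 over the 42 genes and 0.00 over all genes tested, and 32 of the 42 lay below 0, where 50.2% of all genes did. Both 8 h libraries were below both 4 h libraries for 25 ciliary genes and above for 7, with 34.9% and 34.8% of all genes as background and 69.7% in either direction. IFT81 alone also passed the fold threshold of an absolute log2FC above 1, which 5.33% of all genes passed, 3.88% lower and 1.45% higher. Fewer ciliary genes passed as lower with any 1 library left out. Such a fit has a lone library at 1 time and takes its spread from the other time. The median log2FC of the 42 genes was −0.22 without 4 h replicate 1 and −0.21 without 4 h replicate 2. It was −0.32 without 8 h replicate 1 and −0.30 without 8 h replicate 2. DESeq2 called 8 ciliary genes lower and 2 higher, where it called 12.5% and 14.9% of all genes, and Limma-Voom called 16 lower and 3 higher (18.6% and 19.8% of all genes). Scaled by library size alone, 19 were lower and 2 higher (26.2% and 13.5% of all genes), and corrected for transcript GC content 17 were lower and 4 higher (20.7% and 22.6% of all genes).

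Levels of genes moved with the direction of change across the transcriptome. Over all genes, the median log2FC ran from −0.20 in the lowest of 5 groups of equal size by mean log2-CPM to 0.12 in the highest, and no ciliary gene was in the highest. From the lowest group upward, 1 of 4, 7 of 17, 6 of 13 and 2 of 8 ciliary genes were lower, where 15.5%, 23.4%, 21.9% and 18.8% of all genes in the same groups were. In the same order, the median log2FC of the ciliary genes was −0.54, −0.22, −0.31 and 0.07. That of all genes in these groups was −0.20, −0.11, −0.03 and 0.06. With each library corrected for this trend, 12 ciliary genes were lower and 3 higher, where 18.4% and 18.1% of all genes were, and their median log2FC was −0.16. BBS7, IFT122, IFT172 and TCTN2 no longer passed with the correction. The ciliary genes span a median of 50851 bases of the genome, against 33689 for all genes tested. The rank correlation of span with log2FC was −0.18 over the 42 genes and −0.01 over 12289 genes with a known span. That of mean log2-CPM was 0.41 and 0.24, that of transcript GC content 0.39 and 0.15 and that of exonic length −0.23 and 0.01. These are given as a description over genes of the same libraries.

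**Figure D2:**
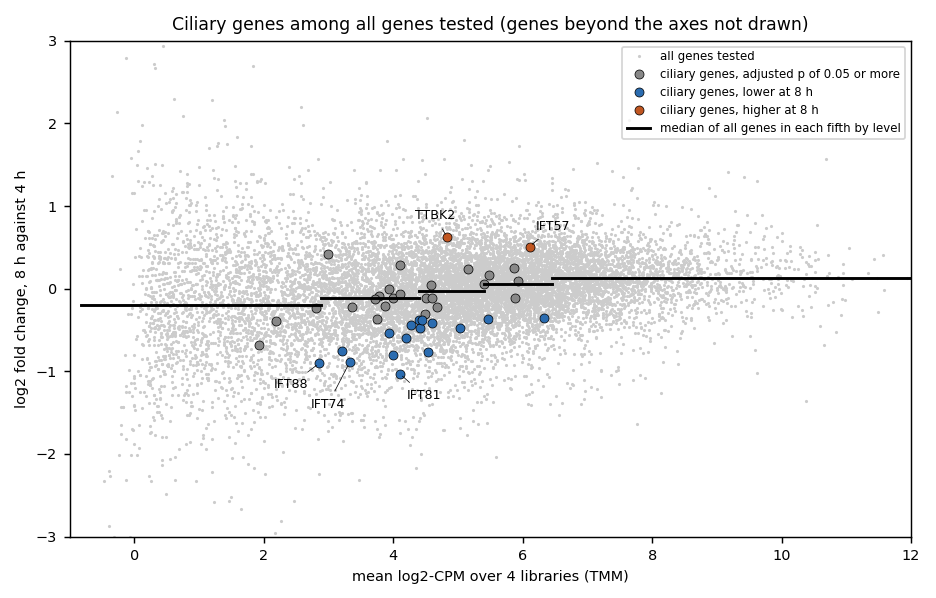
Mean log2-CPM over the 4 libraries (horizontal axis) and log2FC of 8 h against 4 h (vertical axis) of all genes tested (grey points) and of the 42 ciliary genes (circles, blue lower and orange higher at an adjusted p below 0.05). The black lines are the medians of all genes in 5 groups of equal size by level, from −0.20 to 0.12, and no ciliary gene lies in the highest group.

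Among the 42 genes, those of IFT-B, the complex of outward transport, held the strongest fall and 1 of the 2 rises. IFT-B subunits outside the 42 are in the lists below. IFT81 and IFT74 form a pair that binds tubulin cargo in the core of the complex. IFT81 (chromosome 12, 110562140 to 110656598, plus strand, hg19) had 27.0 and 21.6 CPM at 4 h and 11.9 and 11.8 CPM at 8 h. Both 8 h libraries lay well under both 4 h libraries, and the gene fell to 0.49 of its level (log2FC −1.03, standard error 0.16, edgeR adjusted p = 6.3e-05). IFT74 (chromosome 9, 26947037 to 27066132, plus strand) had 13.9 and 12.9 CPM at 4 h and 7.25 and 7.13 CPM at 8 h, and its replicates differed by far less than the times (log2FC −0.89, standard error 0.19, edgeR adjusted p = 0.00108). IFT88 (chromosome 13, 21141277 to 21265583, plus strand), whose loss prevents cilium formation in mice and cells, had 11.1 and 8.23 CPM at 4 h and 4.27 and 6.22 CPM at 8 h. The times did not overlap but the replicates were spread (log2FC −0.90, standard error 0.24, edgeR adjusted p = 0.00597), and without 4 h replicate 1 or without 8 h replicate 1 the call was lost, with an adjusted p of up to 0.119. IFT172 (chromosome 2, 27667244 to 27712672, minus strand), a peripheral subunit, had 19.7 and 16.7 CPM at 4 h and 13.9 and 11.1 CPM at 8 h (log2FC −0.53, standard error 0.17, edgeR adjusted p = 0.0193), and its adjusted p was 0.189 without 4 h replicate 1, 0.101 without 8 h replicate 2 and 0.0852 with DESeq2.

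IFT57 (chromosome 3, 107879659 to 107941282, minus strand), a peripheral IFT-B subunit that binds IFT20, was the opposite case. It had 58.0 and 56.9 CPM at 4 h and 80.0 and 83.6 CPM at 8 h, so that both 8 h libraries lay above both 4 h libraries (log2FC 0.51, standard error 0.09, edgeR adjusted p = 0.000235). The other 6 IFT-B genes among the 42 did not pass. Their log2FC ran from −0.37 for IFT27, a small GTPase that had 13.9 and 16.1 CPM at 4 h and 11.7 and 11.5 CPM at 8 h (edgeR adjusted p = 0.102), to 0.23 for IFT52, a core subunit with 30.7 and 34.2 CPM at 4 h and 37.3 and 39.1 CPM at 8 h (edgeR adjusted p = 0.117). IFT20, which also works at the Golgi, had 23.6 and 23.5 CPM at 4 h and 24.8 and 23.6 CPM at 8 h, and its times overlapped. Most exonic bases of IFT22 (59.0%) are shared with a gene on the opposite strand and 27.6% of those of IFT80 with another gene model on the same strand, so the counts of both are uncertain.

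Of the 5 genes of return transport among the 42, 1 of 3 in IFT-A and 1 of 2 in dynein-2 were lower and none was higher. Further subunits of both complexes are in the lists below. Over all genes tested 18.8% were lower and 19.9% higher, and groups this small cannot be set apart from those shares. The median log2FC was −0.22 in these IFT-A genes and −0.34 in these dynein-2 genes, against −0.12 for the 11 IFT-B genes among the 42. The groups were not tested against each other. IFT122 (chromosome 3, 129148450 to 129239353, plus strand), a core IFT-A subunit, had 22.8 and 24.97 CPM at 4 h and 18.3 CPM in both 8 h libraries (log2FC −0.38, standard error 0.14, edgeR adjusted p = 0.0374). The call was lost with each of the 4 libraries left out and with DESeq2, with an adjusted p of up to 0.238 for the former. The other IFT-A genes among the 42 were IFT140, with 25.8 and 28.9 CPM at 4 h and 19.95 and 27.5 CPM at 8 h (log2FC −0.22, edgeR adjusted p = 0.262), and IFT43, with 14.4 and 13.4 CPM at 4 h and 13.3 and 12.8 CPM at 8 h (log2FC −0.09, edgeR adjusted p = 0.71). Only IFT140 had overlapping times. DYNC2H1 (chromosome 11, 102980139 to 103350591, plus strand), the heavy chain of the dynein-2 motor that pulls IFT-A trains, had 38.6 and 38.1 CPM at 4 h and 25.9 and 29.6 CPM at 8 h (log2FC −0.47, standard error 0.12, edgeR adjusted p = 0.00405). Its light intermediate chain DYNC2LI1 had 14.98 and 16.1 CPM at 4 h and 14.1 and 12.6 CPM at 8 h and did not pass (log2FC −0.22, edgeR adjusted p = 0.325).

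Of the 7 BBSome subunits among the 42 genes, 4 fell and none rose, where 18.8% of all genes tested were lower and 19.9% higher. BBIP1, a further subunit, is given with the other lists below. BBS2 (chromosome 16, 56499552 to 56616579, minus strand) had 49.9 and 49.4 CPM at 4 h and 39.0 and 38.0 CPM at 8 h (log2FC −0.36, standard error 0.10, edgeR adjusted p = 0.00956). BBS7, which pairs with BBS2 in the assembly of the complex, had 22.6 and 22.1 CPM at 4 h and 17.1 and 15.8 CPM at 8 h (log2FC −0.44, edgeR adjusted p = 0.0222). BBS4, a subunit also found at centriolar satellites, had 28.9 and 26.3 CPM at 4 h and 20.7 CPM in both 8 h libraries (log2FC −0.41, edgeR adjusted p = 0.0191). TTC8, also known as BBS8, had 25.4 and 24.4 CPM at 4 h and 18.7 and 17.0 CPM at 8 h (log2FC −0.48, edgeR adjusted p = 0.0112). Their replicates lay close together and the times apart, yet all 4 calls were lost with DESeq2, with adjusted p-values from 0.053 to 0.107. They were also lost without 4 h replicate 1 (adjusted p from 0.0628 to 0.166) and without 4 h replicate 2 (from 0.0528 to 0.101), and that of BBS7 without 8 h replicate 2 (0.0716). The other subunits did not pass, among them BBS9 (log2FC −0.13). BBS5 had 5.90 and 4.07 CPM at 4 h and 3.73 and 3.89 CPM at 8 h, on at most 63 counts per library (log2FC −0.39, edgeR adjusted p = 0.285). BBS1 had 43.6 and 40.4 CPM at 4 h and 44.7 and 49.9 CPM at 8 h (log2FC 0.17, edgeR adjusted p = 0.231). Of the exonic bases of BBS1 and BBS5, 54.0% and 23.5% are shared with another gene model on the same strand, so the counts of both are uncertain.

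The BBSome is assembled with chaperonin-like proteins and recruited to membranes by a GTPase. BBS10 (chromosome 12, 76738254 to 76742195, minus strand), a chaperonin-like factor, had 32.8 and 27.4 CPM at 4 h and 19.0 and 16.3 CPM at 8 h (log2FC −0.76, standard error 0.14, edgeR adjusted p = 0.000357). BBS12, of the same chaperonin-like family, had 15.8 and 14.2 CPM at 4 h and 14.8 and 15.2 CPM at 8 h, with overlapping times (log2FC 0.00, standard error 0.16). The difference between these related genes was not tested. ARL6, the GTPase, was the ciliary gene nearest to the filter, with 4.03 and 5.201 CPM at 4 h and 3.20 and 2.46 CPM at 8 h (log2FC −0.69, standard error 0.30, edgeR adjusted p = 0.073).

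Of the 12 transition zone genes among the 42, 4 were lower and none higher, beside 18.8% lower and 19.9% higher over all genes tested. CC2D2A (chromosome 4, 15471489 to 15603175, plus strand), of the module linked to Meckel and Joubert syndromes, had 24.2 and 20.7 CPM at 4 h and 14.7 and 14.9 CPM at 8 h (log2FC −0.60, standard error 0.15, edgeR adjusted p = 0.00418), and its adjusted p was 0.0874 without 4 h replicate 1. RPGRIP1L (chromosome 16, 53632065 to 53737850, minus strand), a scaffold of the gate, had 13.9 and 9.65 CPM at 4 h and 7.04 and 6.87 CPM at 8 h (log2FC −0.75, standard error 0.22, edgeR adjusted p = 0.00957). The 4 h replicates of RPGRIP1L were far apart, and its adjusted p was 0.206 without 4 h replicate 1 and 0.0533 with DESeq2. Among the tectonic proteins, which share a family, TCTN3 (84.2 and 97.9 CPM at 4 h, 70.4 and 72.3 CPM at 8 h) and TCTN2 (23.96 and 25.2 CPM at 4 h, 20.1 and 17.8 CPM at 8 h) fell by 0.35 and 0.38 on the log2 scale (edgeR adjusted p = 0.0063 and 0.0408). Without 4 h replicate 2 their adjusted p-values were 0.171 and 0.209, and that of TCTN2 was 0.11 without 4 h replicate 1 and 0.157 without 8 h replicate 2. The call of TCTN2 was also lost with DESeq2 (adjusted p = 0.16) and with the correction for gene length. TCTN1 had 52.7 and 54.2 CPM at 4 h and 66.8 and 60.3 CPM at 8 h, with no overlap, and narrowly missed the threshold (log2FC 0.25, standard error 0.10, edgeR adjusted p = 0.0504).

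Of the remaining transition zone genes, TMEM216 had the highest log2FC, with 6.27 and 7.19 CPM at 4 h and 9.60 and 8.29 CPM at 8 h (log2FC 0.42, standard error 0.21, edgeR adjusted p = 0.126). CEP290, which tethers the ciliary membrane to the axoneme, had 27.2 and 22.5 CPM at 4 h and 21.0 and 19.1 CPM at 8 h (log2FC −0.31, edgeR adjusted p = 0.0995). NPHP4 had 23.9 and 22.9 CPM at 4 h and 18.9 and 24.75 CPM at 8 h, with overlapping times (log2FC −0.11, edgeR adjusted p = 0.594). B9D2 had 8.33 and 6.62 CPM at 4 h and 7.15 and 5.44 CPM at 8 h, also overlapping (log2FC −0.24, edgeR adjusted p = 0.444). TMEM67, TMEM231 and B9D1 had a log2FC of −0.22, 0.28 and −0.06 and did not pass, and 26.5% of the B9D1 exonic bases are shared with EPN2 on the opposite strand.

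**Figure D3:**
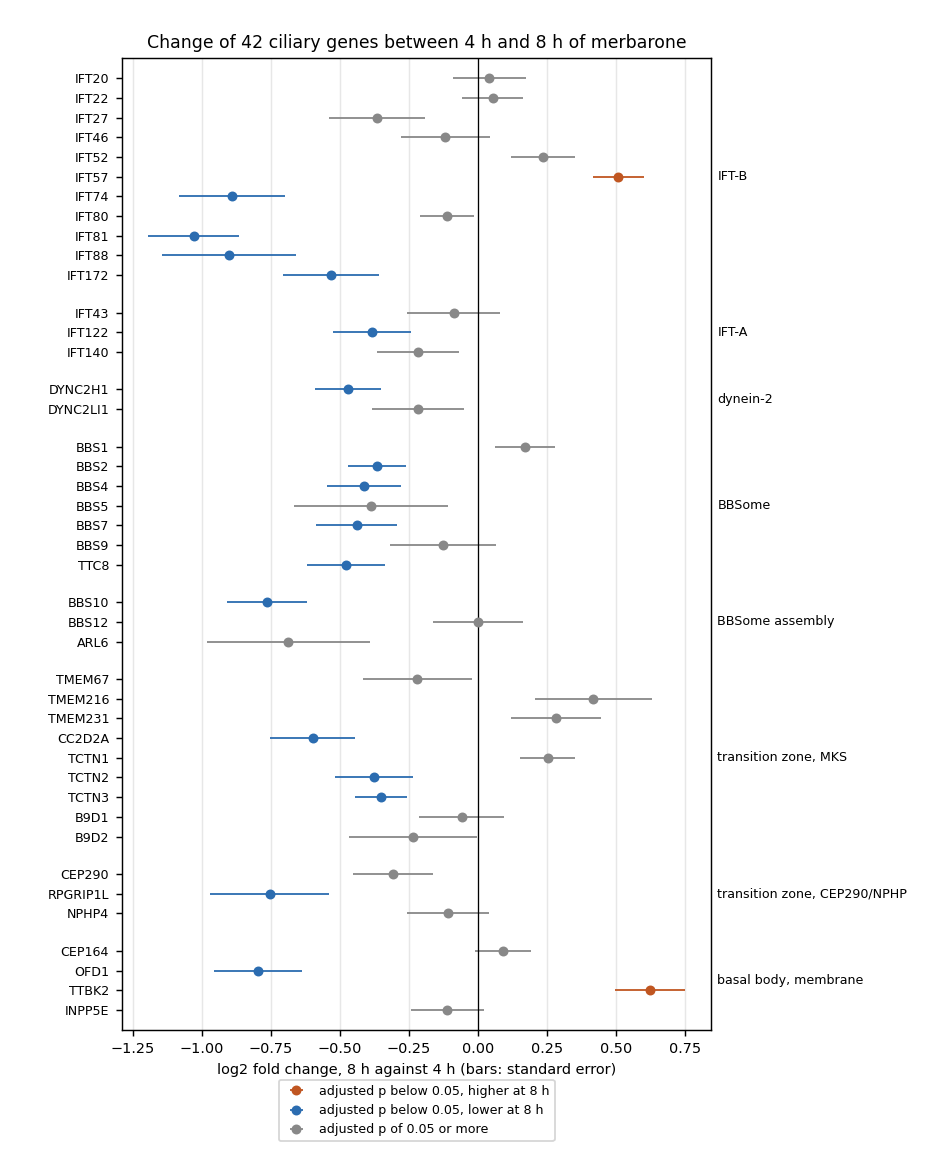
The log2FC of 8 h against 4 h (horizontal axis) of each of the 42 ciliary genes by role, as points with the standard error as bars. Blue marks the 16 genes that were lower and orange the 2 that were higher at an adjusted p below 0.05, and grey the 24 that did not pass.

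At the basal body, 2 genes moved in opposite directions. TTBK2 (chromosome 15, 43030928 to 43213007, minus strand) is the kinase that starts cilium growth by releasing the cap protein CCP110 from the mother centriole. It had 22.9 and 22.6 CPM at 4 h and 32.8 and 37.5 CPM at 8 h, the largest rise of the 42 (log2FC 0.62, standard error 0.13, edgeR adjusted p = 0.000707). An antisense gene covers 18.3% of the TTBK2 exonic bases and whether the counting used strand is not known, so reads of the pair cannot be told apart. OFD1 (chromosome X, 13752862 to 13796074, plus strand), a protein of centriolar satellites and the distal centriole, had 20.03 and 21.5 CPM at 4 h and 12.2 and 11.7 CPM at 8 h (log2FC −0.80, standard error 0.16, edgeR adjusted p = 0.000594). CEP164, the distal appendage protein that recruits TTBK2, had 55.5 and 62.5 CPM at 4 h and 65.8 and 59.5 CPM at 8 h, with overlapping times (log2FC 0.09, standard error 0.10). INPP5E, the phosphoinositide phosphatase of the ciliary membrane, had 25.65 and 24.2 CPM at 4 h and 22.8 and 23.3 CPM at 8 h (log2FC −0.11, edgeR adjusted p = 0.532).

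Of the 18 genes that passed, 6 did so in the same direction with every alternative test, scaling, filter, block and correction and with each library left out. These were IFT81, IFT74, BBS10 and OFD1, which fell, and IFT57 and TTBK2, which rose. All 18 kept their direction throughout.

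**Figure D4:**
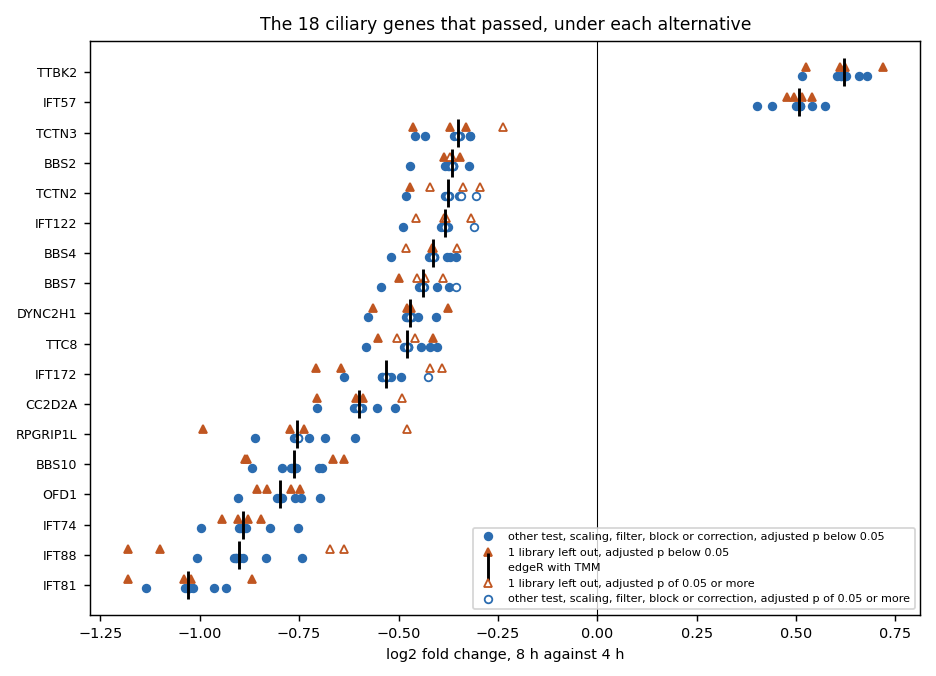
The log2FC of 8 h against 4 h (horizontal axis) of the 18 ciliary genes that passed, under each alternative. Black bars are the values with edgeR and TMM, blue circles the 12 alternatives in test, scaling, filter, block, correction or threshold, orange triangles the 4 fits with 1 library left out, and open symbols have an adjusted p of 0.05 or more. No symbol crosses 0.

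Other genes of ciliary structure, from 5 further lists that do not share genes with the 42, were lower in 22 and higher in 4 of 73 tested, with a median log2FC of −0.22, against 18.8% lower and 19.9% higher over all genes tested, shares that also stand behind the count of each list. Among the remaining IFT and motor genes, 6 of 18 were lower and none higher. The named ones were the IFT-B subunits IFT56 (7.96 and 8.23 CPM at 4 h, 2.88 and 4.54 CPM at 8 h, log2FC −1.15) and IFT25 (log2FC −0.61), the dynein-2 intermediate chain DYNC2I1 (log2FC −0.46) and the IFT-A subunit WDR35 (log2FC −0.38). The calls of IFT25, DYNC2I1 and WDR35 were lost with DESeq2 and without 4 h replicate 1 (adjusted p of 0.103, 0.359 and 0.104). Those of IFT25 and WDR35 were lost without 4 h replicate 2 (0.099 and 0.207), those of IFT25 and DYNC2I1 without 8 h replicate 1 (0.207 and 0.0772) and that of WDR35 without 8 h replicate 2 (0.358). The kinesin-II genes KIF3A, KIF3B and KIFAP3, named after their values were seen, had a log2FC from −0.22 to −0.12 and did not pass. In the BBS list, MKKS, a chaperonin-like partner of BBS10, fell (log2FC −0.43) and the other 4 genes did not pass. Among these, the BBSome subunit BBIP1 had 25.6 and 21.8 CPM at 4 h and 28.5 and 27.6 CPM at 8 h (log2FC 0.24, edgeR adjusted p = 0.161).

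Among other transition zone and ciliopathy genes, 5 of 15 were lower and none higher, with CEP41 (27.0 and 29.8 CPM at 4 h, 11.3 and 16.8 CPM at 8 h, log2FC −1.03), MKS1 (log2FC −0.98), TMEM107 (log2FC −0.94) and TMEM138 (log2FC −0.73) as the largest. The adjusted p of MKS1 was 0.0523 without 4 h replicate 2. Genes of the distal appendages and of centriole uncapping were lower in 8 of 19 and higher in 1. KIF24 (log2FC −0.80) and MPHOSPH9 (log2FC −0.58), which keep the centriole capped, fell, as did KIAA0586 (log2FC −0.70) and the appendage gene SCLT1 (log2FC −0.63), while C2CD3 was the 1 that rose (log2FC 0.39), named after its value was seen. Without 4 h replicate 1, the adjusted p of SCLT1, C2CD3 and KIAA0586 was 0.0898, 0.0704 and 0.056. CCP110, also named after its values were seen, had 52.0 and 46.5 CPM at 4 h and 41.3 and 41.6 CPM at 8 h and did not pass (log2FC −0.25, edgeR adjusted p = 0.0723). In the list of ciliary membrane and signalling genes 2 of 16 were lower and 3 higher, near the 18.8% and 19.9% of all genes. CILK1, a kinase of the ciliary tip, fell (27.1 and 23.8 CPM at 4 h, 13.4 and 14.4 CPM at 8 h, log2FC −0.87), whereas its relative MOK (log2FC 0.54), PKD1 (log2FC 0.41) and EVC (log2FC 0.26) rose, although EVC did not pass with the correction for level (adjusted p = 0.214). The calls of PKD1 were lost without 4 h replicate 2 (0.0693) or 8 h replicate 2 (0.137), and that of EVC without 4 h replicate 1 (0.214) or 8 h replicate 2 (0.0629).

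In a list of RFX and other transcription factors, not all of them regulators of ciliary genes, 3 of 8 tested rose and 1 fell. Over all genes tested 19.9% were higher and 18.8% lower. RFX7 had 45.03 and 43.1 CPM at 4 h and 72.9 and 83.5 CPM at 8 h (log2FC 0.82, standard error 0.10, edgeR adjusted p = 3.83e-06). RFX1 had 17.1 and 13.6 CPM at 4 h and 23.4 and 24.6 CPM at 8 h (log2FC 0.64, standard error 0.15, edgeR adjusted p = 0.00265), with an adjusted p of 0.0722 without 4 h replicate 2. RFX3, a regulator of cilium growth, had 8.52 and 6.52 CPM at 4 h and 10.2 and 11.9 CPM at 8 h (log2FC 0.55, edgeR adjusted p = 0.0409), a call that was lost with DESeq2 (adjusted p = 0.161) and without 4 h replicate 1 (0.0518), 4 h replicate 2 (0.314) or 8 h replicate 2 (0.142). RFX5, known for MHC class II genes, fell (log2FC −0.68). Of the 6 ciliary genes with an X-box, IFT57 rose, IFT122 and TCTN3 fell and the other 3 did not pass, and the part of RFX factors in these changes was not tested.

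Cell division genes fell at the same time and by more. Of 16 proliferation markers 15 were lower and none higher, with a median log2FC of −1.15. Over all genes tested 18.8% were lower and 19.9% higher, shares that also stand behind the counts of the lists below. The summed level of the proliferation markers was 1977 and 1928 CPM at 4 h against 1105 and 1021 CPM at 8 h. MKI67 had 259.7 and 275.8 CPM at 4 h and 126.1 and 114.2 CPM at 8 h, and CCNB1 had 73.4 and 66.5 CPM at 4 h and 25.5 and 19.1 CPM at 8 h. Their part in the result on ciliary genes was not tested. Genes tied to cilium disassembly or its control, a list that shares PLK1 and AURKA with the proliferation markers and whose NEK2 and BUB1B are also mitotic, were lower in 8 of 10 and higher in 1 (KCTD17, named after its value was seen, whose adjusted p was 0.144 with DESeq2 and 0.197, 0.115 and 0.144 without 4 h replicate 1, 4 h replicate 2 and 8 h replicate 1). AURKA, the kinase that drives resorption, had 34.8 and 37.5 CPM at 4 h and 11.5 and 12.3 CPM at 8 h (log2FC −1.60, standard error 0.14, edgeR adjusted p = 6.15e-08). BUB1B (log2FC −2.17), which is known to be needed for cilium formation and not for disassembly, PLK1 (log2FC −1.63) and NEK2 (log2FC −1.23) were the others named. Centriole duplication genes were lower in 9 of 23 and higher in 1 (TUBE1, named after its value was seen), with CCNF (log2FC −1.34), CEP152 (log2FC −1.23), STIL (log2FC −1.10) and CPAP (log2FC −1.0) as the largest falls.

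**Figure D5:**
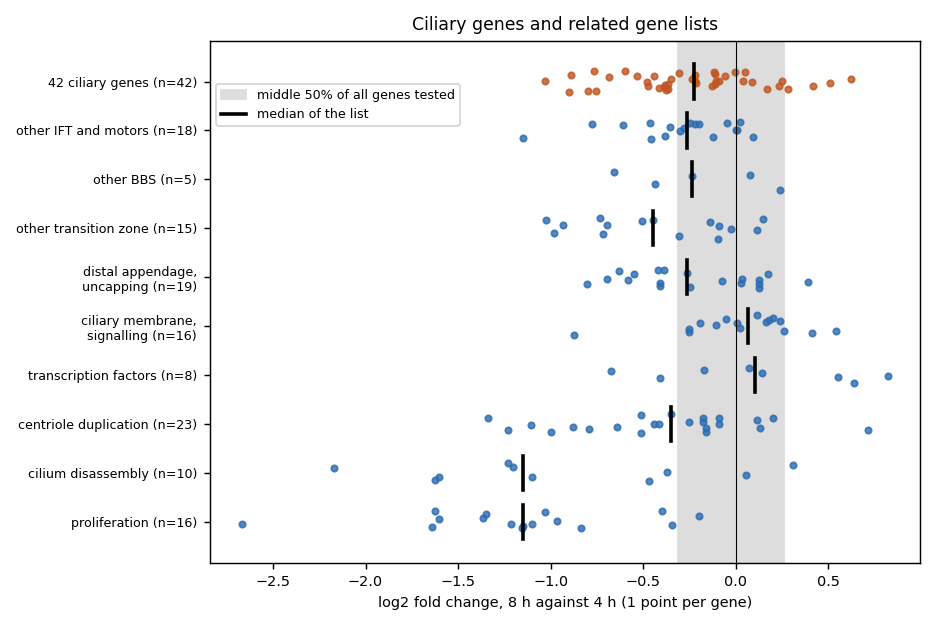
The log2FC of 8 h against 4 h (horizontal axis) of the 42 ciliary genes (orange) and of genes in related lists (blue), 1 point per gene with the median of each list as a black bar and the middle 50% of all genes tested shaded. Medians ran from −1.15 for the proliferation and disassembly lists to 0.11 for the transcription factors, and that of the ciliary genes was −0.23.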

How the data were processed

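RNA from hTERT RPE-1 cells was sequenced as 4 libraries, 2 replicates at 4 h and 2 at 8 h of merbarone. The authors deposited raw counts per NCBI Gene identifier, made from quality-checked reads (FASTQC) with a single Bowtie position in hg19. The submitters' processing notes give Bowtie as version 1.2.0. The counting tool, the gene annotation and the strand setting are not given in the sources used here. Bowtie does not align reads across splice junctions, and the share of reads lost this way was not measured.

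The 12559 of 23459 genes whose CPM exceeded 1 in 2 or more libraries were normalized by TMM and tested with the quasi-likelihood test of edgeR 4.0.16 (R 4.3.3), with time as the only term. A gene passed at a Benjamini-Hochberg adjusted p below 0.05, and the fold threshold of the study is an absolute log2FC above 1. The standard error is the size of the log2FC divided by the square root of F. CPM in the text are TMM-normalized. Alternatives were Limma-Voom (limma 3.58.1), DESeq2 1.42.0, RLE factors, library size alone, other filters, a replicate block, corrections for trends with mean log2-CPM, transcript GC content and gene span, glmTreat with a log2FC of 0.3, and leaving out each library. Scripts were tested on simulated counts.

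Symbols came from the RefSeq table of GRCh38.p14 (23308 genes matched), and positions, lengths and exonic overlaps from GENCODE on GRCh37, the assembly of hg19. The members and lists were chosen with earlier results of these data known. Values per library are given for the ciliary genes that passed, for the extremes of each role and those nearest the filter, and for up to 4 genes per other list, chosen by size of log2FC among those that passed whose normalized counts averaged 50 or more, IFT20 being added after its values were seen. The study describes its replicates as biological, and the sources used here do not say how the cultures were separated, so p-values measure the spread between these libraries. The replicates differed by more than sampling noise, with a chi-square per degree of freedom of 2.67 at 4 h and 3.84 at 8 h. The biological coefficient of variation was 6.52%.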

Additional observations from a re-analysis of the deposited data

How the results depend on the processing

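Over the alternatives other than leaving out a library, the ciliary genes called higher stayed at 2 or 3 except with the correction for GC content (4), and those called lower at 12 to 19 except with DESeq2 (8) and with glmTreat, which tests against a log2FC of 0.3 in place of 0 (6). The 1 gene past the fold threshold became 2 with library size alone and 0 with the corrections for mean log2-CPM and for GC content. The median log2FC of the 42 genes was −0.33 with library size alone, which moved the median of all genes to −0.11. The genes called lower over all genes tested, 2367 as reported, were 1503 with DESeq2 and 1134 with glmTreat, and the genes called higher over all genes tested, 2500 as reported, were 962 with glmTreat.

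With 1 library left out, the lone library being assumed to vary like those of the other time, ciliary genes called lower ran from 6 to 14, called higher from 2 to 3 and past the fold threshold from 0 to 2, and the median log2FC from −0.32 to −0.21. The genes called higher over all genes tested ran from 1605 to 2534 and the genes called lower over all genes tested from 1509 to 2294. With the replicate number of the labels as a replicate block, 3 ciliary genes were higher and 16 lower, TCTN1 being added and no call lost. Deviations of same-numbered libraries had a correlation of 0.05 over all genes and 0.11 over the 9396 genes with a mean count of at least 100, and with 2 pairs this does not settle whether the numbers pair the libraries. Library depth limits ARL6 and BBS5 the most, with at most 63 counts.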
